A study of Mus musculus with 15 samples.

Results

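The transcription factor genes Mef2c, Myb, Sox4 and Hoxa10, were followed through the first steps of innate lymphoid cell (ILC) development in mouse bone marrow and in progenitors that lack TCF-1, the product of Tcf7. The 4 genes were taken by symbol from a table of 12798 genes in 15 RNA-seq libraries. All 4 passed the filter on low values that left 12572 genes for testing. Every library came from bone marrow of C57BL/6 mice, and the labels used here give neither age nor sex.

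The libraries fell into 6 sorted groups. EILP_KO, with 2 libraries, held early innate lymphoid progenitors (EILP) of genotype Tcf7EGFPnull/-. EILP_WT, with 3 libraries, came from Tcf7EGFPnull/+ mice, which by the allele name still carry 1 null copy. Both were sorted as Lin- Kit+ 2B4+ and then as a4b7+ Tcf7+ Thy1-. Specified EILP (sEILP_WT, 2 libraries, Zbtb16low Flt3high) and committed EILP (cEILP_WT, 3 libraries, Zbtb16high Flt3low) came from a strain labelled Tcf7GFP Zbtb16GFP. The ILC precursors (ILCP_WT, 2 libraries, Thy1+ and IL-7Ra+) and the all-lymphoid progenitors (ALP_WT, 3 libraries, a4b7- Flt3high and IL-7Ra+) came from Tcf7EGFP/+ mice. Strain and stage therefore cannot be told apart when sEILP_WT or cEILP_WT is set against the other groups, nor can stage and the null copy of Tcf7 when EILP_WT is set against ALP_WT or ILCP_WT. Genotype, too, cannot be told apart from stage or strain when EILP_KO is set against any group other than EILP_WT. The labels do not say whether replicates came from separate mice, so p-values measure the spread between these libraries. The libraries were made in 2 batches, and sEILP_WT has libraries in batch 1 alone.

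Mef2c is a MADS-box factor used by lymphoid and myeloid progenitors and by B cells. Myb, the cellular counterpart of a retroviral oncogene, is needed in definitive haematopoiesis and keeps many progenitor genes active. Sox4 belongs to the SoxC group of HMG-box factors and is known in B-cell and T-cell progenitors. Hoxa10 lies in the HoxA homeobox cluster, whose genes are active in stem cells and early progenitors and are silenced as cells mature. TCF-1 binds DNA through an HMG box, as SOX proteins do, and with its relative LEF-1 recognises sites with the core CTTTGA.

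On the GRCm38 build (mm10) with GENCODE M21, Mef2c lies at chr13:83504034-83667080 on the plus strand and Sox4 at chr13:28948919-28953713 on the minus strand. Myb lies at chr10:21124935-21160984 and Hoxa10 at chr6:52231197-52240854, both on the minus strand. Myb and Sox4 each overlap a non-coding gene on the opposite strand, Gm26577 and Gm26735. Whether counting used strand is not given in the sources used here, so reads from either pair cannot be told apart.

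RefSeq (GRCm38.p6) gave 7 promoter windows for the 4 genes, each reaching from 250 bases before a transcription start to 50 bases after it. The windows of start 3 of Mef2c, start 2 of Hoxa10 and the only starts of Myb and Sox4 are printed to show where the TCF/LEF core lies in genes measured with and without TCF-1. Capitals mark CTTTGA, searched on both strands.
Mef2c, start 3, chr13:83573357-83573656, plus strand: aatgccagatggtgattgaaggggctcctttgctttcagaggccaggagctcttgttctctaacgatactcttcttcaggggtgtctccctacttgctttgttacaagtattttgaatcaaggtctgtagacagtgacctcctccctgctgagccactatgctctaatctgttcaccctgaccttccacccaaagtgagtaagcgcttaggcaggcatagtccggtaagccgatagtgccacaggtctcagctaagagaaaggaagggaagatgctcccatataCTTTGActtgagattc
Hoxa10, start 2, chr6:52234890-52235189, minus strand: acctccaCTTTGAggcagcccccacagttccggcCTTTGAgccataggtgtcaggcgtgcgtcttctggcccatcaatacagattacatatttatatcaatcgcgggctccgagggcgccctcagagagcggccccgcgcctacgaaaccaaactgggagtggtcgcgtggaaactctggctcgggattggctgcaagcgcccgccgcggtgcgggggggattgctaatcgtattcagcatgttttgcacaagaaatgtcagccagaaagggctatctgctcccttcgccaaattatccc
Myb, chr10:21160935-21161234, minus strand: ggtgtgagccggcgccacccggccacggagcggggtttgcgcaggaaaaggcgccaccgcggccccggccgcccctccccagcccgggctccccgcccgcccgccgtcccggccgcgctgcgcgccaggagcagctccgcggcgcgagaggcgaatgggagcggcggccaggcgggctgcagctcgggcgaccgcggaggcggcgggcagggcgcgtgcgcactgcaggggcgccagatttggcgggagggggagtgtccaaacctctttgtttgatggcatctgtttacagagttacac
Sox4, chr13:28953650-28953949, minus strand: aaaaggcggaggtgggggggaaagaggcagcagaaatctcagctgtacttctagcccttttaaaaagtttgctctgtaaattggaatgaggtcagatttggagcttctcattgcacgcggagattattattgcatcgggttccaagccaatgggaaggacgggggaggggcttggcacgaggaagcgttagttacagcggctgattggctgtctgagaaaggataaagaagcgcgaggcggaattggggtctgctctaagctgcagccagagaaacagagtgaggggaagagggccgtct
The core occurs 1 time in the Mef2c window, 34 bases after the start, and 2 times in the Hoxa10 window, 243 and 216 bases before it. It is not among the letters of the other 5 windows, Myb and Sox4 included. Of 32851 RefSeq promoter windows of the same length, 16.0% hold the core on either strand. The MYB core AACNG was found in 6 of the 7 windows and in 80.3% of all windows. The Myb window is 75% G and C with 40 CpG pairs, against 4 CpG pairs in the window of Mef2c start 3. A match describes the letters and is not a measured site.

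The deposited values are log2 expression values with near-identical distributions in all 15 libraries. In every library a block of 747 to 2575 genes shares 1 bottom value, which differs by library (-4.83 to -4.41), and a gene there is described as listed at the lowest value. Read depth is unknown, so no counting interval is given. EILP_WT replicate 3 had the most genes at the lowest value (2575), against 1877 and 1470 in the other EILP_WT libraries. Tcf7 itself was 6.97 and 7.65 in EILP_KO and 9.89, 10.81 and 11.14 in EILP_WT, a fall of 3.34 on the log2 scale (SE 0.32, limma adjusted p = 0.00151). It was 1.91 to 2.64 in ALP_WT, the group outside the Tcf7 gate. In these bulk libraries, fewer cells of a type and less RNA per cell cannot be told apart. All levels below are log2 values, and all tests are limma's moderated test over 12572 genes with Benjamini-Hochberg adjustment and batch as a term.

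Mef2c stepped down along the stages and was lowest in ILCP_WT. It was 9.55, 8.96 and 9.18 in ALP_WT, 8.54 and 8.41 in sEILP_WT. The values were 7.47, 7.57 and 6.67 in cEILP_WT and 4.25 and 5.71 in ILCP_WT. The libraries of neighbouring stages did not overlap at any of these steps, and of these the step to ILCP_WT alone was called. How many of all genes separate like this was not counted, here or below, so separation is described only. Outside the stage series, Mef2c was 9.06 and 8.56 in EILP_KO, against 8.39, 7.51 and 7.07 in EILP_WT. EILP_KO replicate 1 lay within the ALP_WT range and replicate 2 below it, and all 3 EILP_WT libraries lay below it.

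Group means of Mef2c ran from 9.23 ± 0.30 in ALP_WT (SD, n = 3) through 8.81 ± 0.35 in EILP_KO (n = 2), 8.48 ± 0.09 in sEILP_WT (n = 2), 7.66 ± 0.67 in EILP_WT (n = 3) and 7.24 ± 0.49 in cEILP_WT (n = 3) to 4.98 ± 1.03 in ILCP_WT (n = 2). Of neighbours in this order, the last pair alone passed the test. The limma adjusted p was 0.747 for EILP_KO against ALP_WT, 0.979 for EILP_KO against sEILP_WT, 0.990 for EILP_WT against sEILP_WT and 0.813 for EILP_WT against cEILP_WT.

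**Figure D1:**
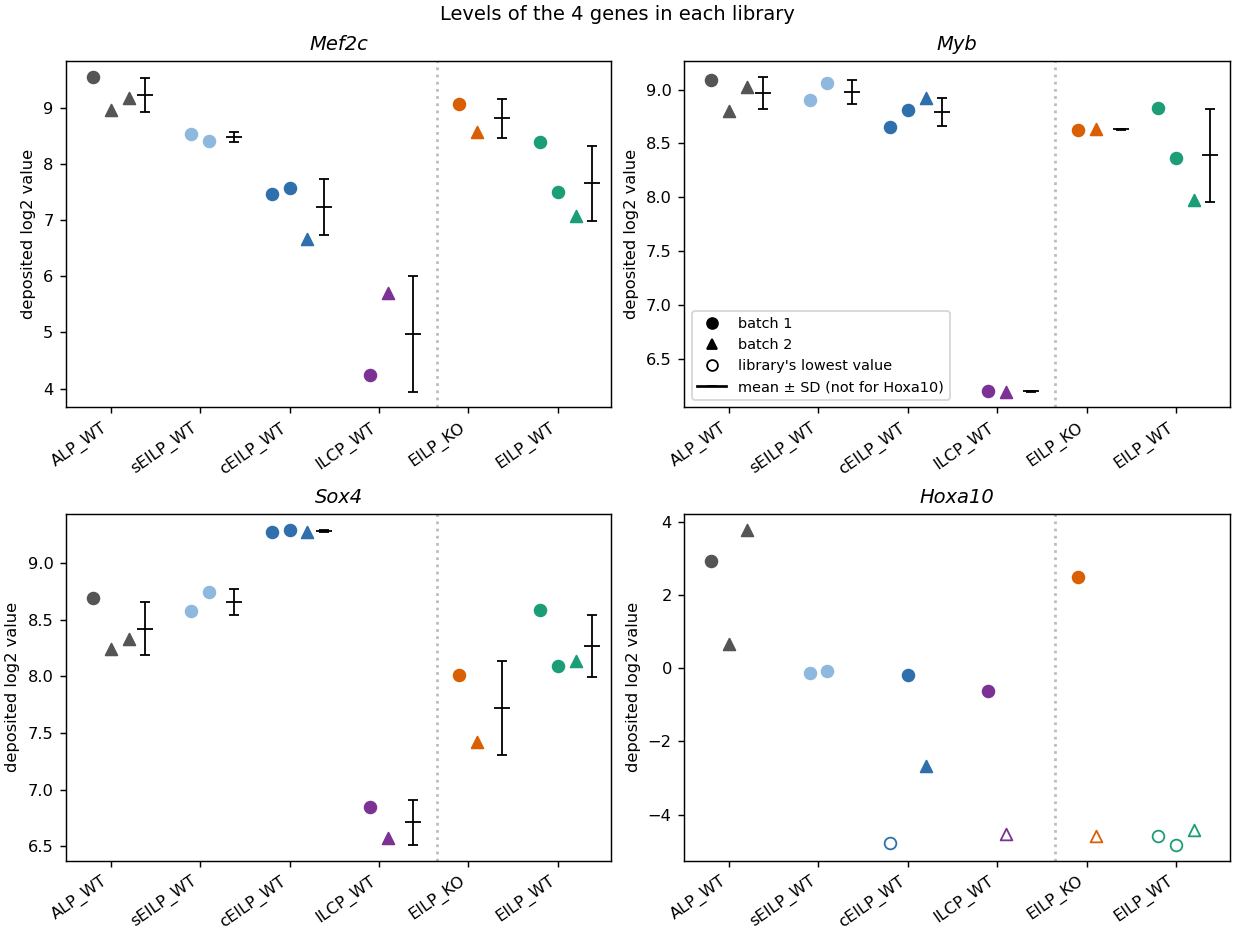
Deposited log2 value (y axis) of Mef2c, Myb, Sox4 and Hoxa10 in each of the 15 libraries, by group (x axis). Circles are batch 1 and triangles batch 2, open symbols lie at their library's lowest value, and bars are mean ± SD for the genes other than Hoxa10. ILCP_WT is lowest for Mef2c, Myb and Sox4, cEILP_WT is highest for Sox4 (9.27 to 9.29), and Hoxa10 is at the lowest value in all 3 EILP_WT libraries.

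The falls in Mef2c were tested between groups. EILP_WT was 1.68 below ALP_WT on the log2 scale (SE 0.40, 3.22-fold lower, limma adjusted p = 0.0418), where 1.5% of all genes tested were called lower. cEILP_WT was 4.3-fold below ALP_WT (log2 change -2.10, SE 0.40, limma adjusted p = 0.0112, with 2.03% of genes called lower). sEILP_WT was 0.97 below ALP_WT (SE 0.47, limma adjusted p = 0.576), which did not pass. cEILP_WT was 1.13 below sEILP_WT (SE 0.44, unadjusted p = 0.025, limma adjusted p = 0.844), also not past the threshold, in a comparison where 0 of 12572 genes (0%) were called and 647 had an unadjusted p under 0.05.

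The Mef2c fall in EILP_WT against ALP_WT lay near the threshold. It was 1.60 within batch 1 and 2.00 within batch 2 (limma adjusted p = 0.113 and 0.135). Leaving out any 1 of the 6 libraries other than EILP_WT replicate 1 ended the call, with limma adjusted p from 0.0906 to 0.216, and the log2 change stayed between -1.98 and -1.40. The cEILP_WT fall was 2.03 and 2.40 within the batches (limma adjusted p = 0.0608 and 0.183), and the call ended without ALP_WT replicate 1 (limma adjusted p = 0.0672) or cEILP_WT replicate 3 (0.0818).

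Markers of other lineages were compared between EILP_WT and ALP_WT, where 1.5% of all genes were called lower and 1.71% higher. Summed on the linear scale, 7 B-lineage genes reached 75.7 to 124 in EILP_WT, against 335 to 553 in ALP_WT, with Rag1 and Rag2, the recombinase genes, called lower, and Ebf1, Vpreb1, Rag1 and Rag2 listed at the lowest value in all EILP_WT libraries. Of 9 dendritic-cell genes, 4 were called lower in EILP_WT (Siglech, Tcf4, Runx2 and Ccr9) and 1 higher (Batf3), with summed levels of 847 to 1975 in EILP_WT and 1447 to 2288 in ALP_WT. The 5 mast-cell and basophil genes summed to 576 to 971 in EILP_WT, against 12.1 to 51.7 in ALP_WT, with Cpa3, a mast-cell protease gene, called higher. The 9 erythroid and megakaryocyte genes summed to 131 to 414 in EILP_WT and 19.5 to 183 in ALP_WT, with Itga2b called higher. Of the 10 myeloid genes, which summed to 574 to 4221 in EILP_WT and 1167 to 2290 in ALP_WT, Lyz2 was called lower. Of the 9 T-lineage genes, which summed to 186 to 412 in EILP_WT and 163 to 262 in ALP_WT, Bcl11b and Trat1 were called higher. The part of these cells in the Mef2c result was not tested.

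ILCP_WT was the stage at which Mef2c, Myb and Sox4 were low together. Against cEILP_WT, Mef2c was 4.61-fold lower (log2 change -2.20, SE 0.43, limma adjusted p = 0.0103), Myb 5.95-fold lower (-2.57, SE 0.20, limma adjusted p = 2.34e-05) and Sox4 5.75-fold lower (-2.52, SE 0.18, limma adjusted p = 8.29e-06). These are 3 of the 4 genes, and 4.72% of all genes tested were called lower and 2.69% higher in that comparison. The median change of all genes was -0.07.

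Against EILP_WT, ILCP_WT gave the same 3 calls, with 4.34% of all genes called lower and 2.61% higher. Mef2c was 6.16-fold lower (log2 change -2.62, SE 0.43, limma adjusted p = 0.00358), Myb 4.49-fold lower (-2.17, SE 0.20, limma adjusted p = 7.29e-05) and Sox4 2.85-fold lower (-1.51, SE 0.18, limma adjusted p = 0.000353). Both comparisons use the same 2 ILCP_WT libraries.

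Measured from the earliest stage, ILCP_WT was below ALP_WT by 4.31 for Mef2c (SE 0.43, 19.8-fold, limma adjusted p = 7.28e-05), by 2.79 for Myb (SE 0.20, 6.93-fold, limma adjusted p = 6.4e-06) and by 1.76 for Sox4 (SE 0.18, 3.38-fold, limma adjusted p = 7.28e-05). In that comparison 7.86% of all genes were called lower and 5.56% higher. The 3 genes were also called lower in ILCP_WT than in sEILP_WT (3.07% of all genes called lower) and than in EILP_KO (4.76%).

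The 2 ILCP_WT libraries agreed closely for Myb (6.20 and 6.20) and Sox4 (6.85 and 6.57) and differed for Mef2c (4.25 and 5.71). Within batch 1 the fall from the cEILP_WT level was 3.27 for Mef2c, 2.53 for Myb and 2.43 for Sox4, and within batch 2 it was 0.96, 2.72 and 2.70. The batch 2 value rests on 1 library in each group, and there none of the 3 passed (limma adjusted p = 0.22, 0.156 and 0.129). Without ILCP_WT replicate 1 the Mef2c fall was 1.07 and was no longer called (limma adjusted p = 0.0738).

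Against EILP_WT the Mef2c fall was 3.70 within batch 1 and 1.37 within batch 2, and 1.49 without ILCP_WT replicate 1 (limma adjusted p = 0.0159). Myb fell by 2.40 and 1.77, and Sox4 by 1.49 and 1.56, within batches 1 and 2. Against ALP_WT the within-batch falls were 5.30 and 3.36 for Mef2c, 2.88 and 2.72 for Myb and 1.84 and 1.72 for Sox4.

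Lineage markers were also compared between ILCP_WT and cEILP_WT, where 4.72% of all genes were called lower and 2.69% higher. Single calls in lists this short are not read as a result about a lineage. The 10 myeloid genes summed to 221 to 1035 in ILCP_WT, against 1356 to 2651 in cEILP_WT, with 1 of the 10 called lower (Csf3r, the G-CSF receptor). The 9 T-lineage genes summed to 734 to 748 in ILCP_WT and 423 to 512 in cEILP_WT, with none called, though 8 of the 9 had a positive change (median 3.23). The 5 mast-cell and basophil genes summed to 90.0 to 757 in ILCP_WT and 1097 to 1990 in cEILP_WT, with Cpa3 called lower. The 9 erythroid and megakaryocyte genes summed to 62.7 to 119 in ILCP_WT and 174 to 383 in cEILP_WT, with Itga2b called lower. Among 9 dendritic-cell genes (575 to 611 in ILCP_WT and 375 to 1017 in cEILP_WT), Irf8 was called lower and Batf3 and Ccr9 higher, and among 7 B-lineage genes (84.5 to 101 in ILCP_WT and 37.96 to 72.2 in cEILP_WT) Vpreb3 was called lower. The part of such cells in the fall of Mef2c, Myb and Sox4 was not tested.

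Myb was level through the progenitor stages and low in ILCP_WT. It was 9.09, 8.80 and 9.02 in ALP_WT, 8.90 and 9.06 in sEILP_WT. The values were 8.66, 8.81 and 8.92 in cEILP_WT and 6.20 and 6.20 in ILCP_WT. In the Tcf7 pair it was 8.63 and 8.64 in EILP_KO, against 8.83, 8.37 and 7.97 in EILP_WT. The ILCP_WT libraries lay apart from the rest, while all other groups lay between 7.97 and 9.09.

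In order, the Myb means were 8.98 ± 0.11 in sEILP_WT, 8.97 ± 0.15 in ALP_WT, 8.80 ± 0.13 in cEILP_WT, 8.63 ± 0.0058 in EILP_KO, 8.39 ± 0.43 in EILP_WT and 6.20 ± 0.0043 in ILCP_WT (SD, n as above). No neighbouring pair among the first 5 passed the test, with limma adjusted p from 0.652 to 0.972. The widest gap among these groups to the ALP_WT level was in EILP_WT, at -0.63 (SE 0.19, unadjusted p = 0.00559, limma adjusted p = 0.103). That value was -0.49 and -0.94 within batches 1 and 2, and it passed when EILP_WT replicate 1 was left out (-0.81, limma adjusted p = 0.022). The change of sEILP_WT against ALP_WT was -0.08 with a 95% interval from -0.56 to 0.40, and that of cEILP_WT against sEILP_WT was -0.14 with an interval from -0.59 to 0.31.

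**Figure D2:**
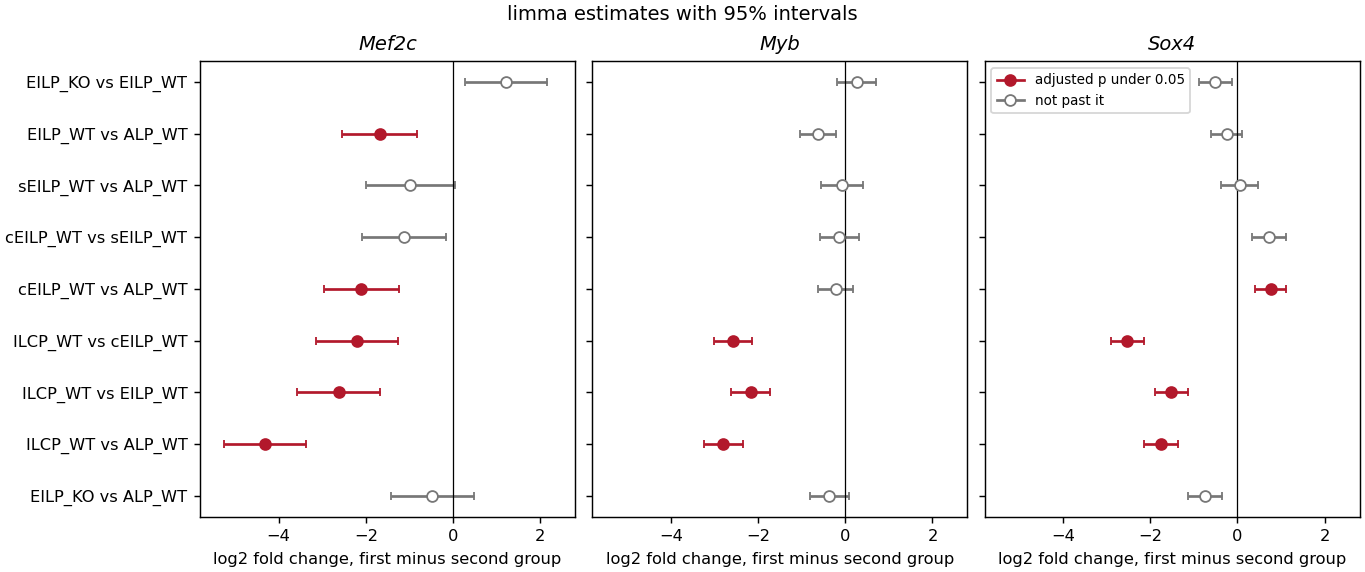
limma log2 fold change (x axis, first group minus second) of Mef2c, Myb and Sox4 with its 95% interval, for 9 comparisons down the y axis. Filled red points have an adjusted p under 0.05. The 3 comparisons that start with ILCP_WT are called lower for all 3 genes, and Sox4 alone is called higher in cEILP_WT against ALP_WT (0.77).

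Sox4 followed another course and was highest in committed EILP. It was 8.69, 8.24 and 8.33 in ALP_WT, 8.57 and 8.74 in sEILP_WT. The values were 9.27, 9.29 and 9.27 in cEILP_WT and 6.85 and 6.57 in ILCP_WT. The 3 cEILP_WT libraries lay above every other library and close to each other. In the Tcf7 pair it was 8.01 and 7.42 in EILP_KO, against 8.58, 8.09 and 8.13 in EILP_WT.

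Against ALP_WT, cEILP_WT was 1.7-fold higher (log2 change 0.77, SE 0.16, limma adjusted p = 0.0207), where 1.97% of all genes were called higher. The rise was 0.59 within batch 1 and 0.99 within batch 2 (limma adjusted p = 0.299 and 0.24). The call ended when any 1 of the 6 libraries other than cEILP_WT replicate 2 was left out, with limma adjusted p from 0.0516 to 0.126. Against sEILP_WT the rise was 0.72 (SE 0.18, unadjusted p = 0.00181, limma adjusted p = 0.625) and was not called.

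The Sox4 means were 9.28 ± 0.01 in cEILP_WT, 8.66 ± 0.12 in sEILP_WT, 8.42 ± 0.24 in ALP_WT, 8.27 ± 0.27 in EILP_WT, 7.72 ± 0.42 in EILP_KO and 6.71 ± 0.20 in ILCP_WT. Between neighbours, the limma adjusted p was 0.625 for cEILP_WT against sEILP_WT, 0.984 for sEILP_WT against ALP_WT, 0.508 for EILP_WT against ALP_WT and 0.485 for EILP_KO against EILP_WT. ILCP_WT was called lower than EILP_KO (log2 change -1.01, SE 0.19, limma adjusted p = 0.008).

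Hoxa10 was near the bottom of the scale in most libraries, and ALP_WT was the group with the highest values. It was 2.93, 0.67 and 3.78 in ALP_WT and -0.14 and -0.07 in sEILP_WT. In cEILP_WT it was -0.18 and -2.67 in 2 libraries and listed at the lowest value in replicate 1. In ILCP_WT it was -0.64 in 1 library and at the lowest value in the other. It was 2.49 in EILP_KO replicate 1 and at the lowest value in EILP_KO replicate 2, and at the lowest value in all 3 EILP_WT libraries. Every ALP_WT library lay above every library of the 4 other wild-type groups.

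Hoxa10 was called lower in EILP_WT than in ALP_WT (limma adjusted p = 0.0481), and no fold is given because the whole EILP_WT group lay at the lowest value. ALP_WT was the 1 group with more than 1 library at 0 or above, so Hoxa10 passed the filter on low values through the group where it is high. With no filter its adjusted p was 0.0473 in limma, and it did not pass the stricter filter of 3 or more. No single library could be left out without ending that call (limma adjusted p from 0.091 to 0.132), and within batches 1 and 2 it was 0.216 and 0.278. The other comparisons did not pass. Against ALP_WT the change was -3.87 in sEILP_WT (SE 2.23, limma adjusted p = 0.681), -5.65 in cEILP_WT (SE 1.89, limma adjusted p = 0.144) and -5.38 in ILCP_WT (SE 2.06, limma adjusted p = 0.113). The cEILP_WT and ILCP_WT estimates include libraries at the lowest value. The sEILP_WT estimate has none there but is batch-adjusted with sEILP_WT in batch 1 alone, and it was -2.56 without the batch term.

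The EILP_KO and EILP_WT libraries address whether loss of TCF-1 alters the 4 genes. None of the 4 was called, in a comparison where 13 of 12572 genes were (0.0477% higher and 0.0557% lower), and 1094 had an unadjusted p under 0.05. Mef2c was 2.32-fold higher in EILP_KO (log2 change 1.21, 95% interval 0.27 to 2.16, unadjusted p = 0.0163, limma adjusted p = 0.5). The change was 1.11 within batch 1 and 1.49 within batch 2, each resting on 1 EILP_KO library. Both EILP_KO libraries (9.06 and 8.56) lay above all 3 EILP_WT libraries (highest 8.39). The share of all genes that separate 2 libraries from 3 in this way was not counted.

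Sox4 was 1.42-fold lower in EILP_KO (log2 change -0.50, 95% interval -0.89 to -0.12, unadjusted p = 0.0147, limma adjusted p = 0.485). The change was -0.32 and -0.71 within the batches, each resting on 1 EILP_KO library. Both EILP_KO libraries (8.01 and 7.42) lay below all 3 EILP_WT libraries (lowest 8.09). That separation, too, was not counted over all genes. Myb changed by 0.26 (interval -0.18 to 0.71, limma adjusted p = 0.742) and its groups overlapped. Hoxa10 was above the lowest value in 1 of 2 EILP_KO libraries and 0 of 3 EILP_WT libraries (limma adjusted p = 0.624).

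EILP_KO differs from ALP_WT, sEILP_WT and cEILP_WT in genotype and also in stage or strain, which cannot be told apart here. Among these comparisons, the 1 call in EILP_KO was Sox4 against cEILP_WT. It was 2.86-fold below cEILP_WT (log2 change -1.51, SE 0.18, limma adjusted p = 0.00809), where 0.215% of all genes were called lower. Against ALP_WT, Sox4 was 1.68-fold lower in EILP_KO (log2 change -0.75, SE 0.18, limma adjusted p = 0.0655), in a comparison with 1.33% of genes called in either direction. Against sEILP_WT it was lower by 0.80 (SE 0.20, limma adjusted p = 0.521, with 0.0159% of genes called). Mef2c in EILP_KO was 0.47 below ALP_WT (95% interval -1.42 to 0.47, limma adjusted p = 0.747) and 1.63 above cEILP_WT (SE 0.43, limma adjusted p = 0.139).

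EILP_WT was called for none of the 4 genes against either fraction of the reporter strain. No gene at all was called against sEILP_WT (0%, with 598 genes at an unadjusted p under 0.05) or against cEILP_WT (0%, with 1031). Sox4 was 1.01 lower in EILP_WT than in cEILP_WT (SE 0.16, limma adjusted p = 0.061), and the 3 EILP_WT libraries lay below the 3 cEILP_WT libraries.

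Lineage markers stood beside the EILP_KO values. The 10 myeloid genes summed to 4432 to 5850 in EILP_KO and 574 to 4221 in EILP_WT, 9 of the 10 had a positive change (median 1.44, against 0.04 over all genes), and none was called. The 9 erythroid and megakaryocyte genes summed to 268 to 1545 in EILP_KO and 131 to 414 in EILP_WT (6 of 9 positive, median 1.196, none called). The 5 mast-cell and basophil genes summed to 343 to 510 in EILP_KO and 576 to 971 in EILP_WT (none called). Yet 4 of those 5 had a positive change (median 0.64), so the sum and most of its genes went opposite ways. The 9 dendritic-cell genes summed to 1465 to 2326 in EILP_KO and 847 to 1975 in EILP_WT, with none called. The 7 B-lineage genes summed to 57.7 to 122 in EILP_KO and 75.7 to 124 in EILP_WT, with Ebf1 and Rag1 at the lowest value in every library of both groups. The 9 T-lineage genes summed to 173 to 193 in EILP_KO and 186 to 412 in EILP_WT, and 5 of them, Cd3e, Cd3d, Cd4, Bcl11b and Trat1, lay at the bottom in each of the EILP_KO libraries. Their part in the Mef2c and Sox4 values was not tested.

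Differences between 2 genes were also taken inside each library, on values that share 1 normalization. Whether the values are per length is not given in the sources used here, so the size of a difference is not read as a ratio of transcripts, and its shift between groups is described. Sox4 minus Mef2c was -1.05 and -1.14 in EILP_KO, against 0.20, 0.58 and 1.06 in EILP_WT. In stage order it was -0.86, -0.72 and -0.85 in ALP_WT, 0.04 and 0.32 in sEILP_WT. The values were 1.80, 1.72 and 2.61 in cEILP_WT and 2.60 and 0.86 in ILCP_WT. The EILP_KO libraries lay below all ALP_WT libraries, and the EILP_WT libraries lay between the highest ALP_WT and the lowest cEILP_WT library. Myb minus Mef2c was -0.43 and 0.07 in EILP_KO, against 0.44, 0.86 and 0.90 in EILP_WT, and 1.19 to 2.25 in cEILP_WT. Sox4 minus Myb was -0.61 and -1.21 in EILP_KO and -0.25, -0.28 and 0.16 in EILP_WT, and EILP_KO overlapped ALP_WT (-0.40, -0.56 and -0.69). These differences restate the values of genes not called in EILP_KO against EILP_WT and are not further evidence.

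**Figure D3:**
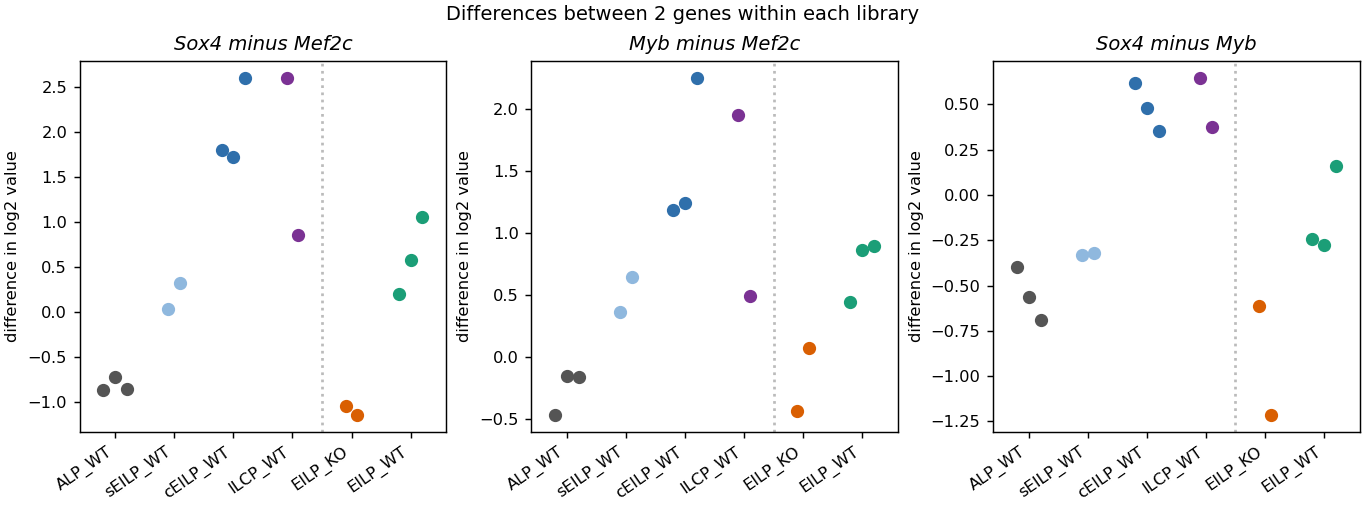
Difference in log2 value between 2 genes of the same library (y axis), by group (x axis), 1 point per library. For Sox4 minus Mef2c the 2 EILP_KO libraries (-1.05 and -1.14) lie just below the ALP_WT libraries (-0.86 to -0.72), while EILP_WT lies between 0.20 and 1.06 and cEILP_WT between 1.72 and 2.61.

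Relatives and partners of the 4 genes were counted in the same fits. Of 9 tested genes of the MEF2 family and the class IIa histone deacetylases that repress it, 0 were called in each of the 6 main comparisons (EILP_KO against EILP_WT, EILP_WT and sEILP_WT against ALP_WT, cEILP_WT against sEILP_WT, and ILCP_WT against cEILP_WT and EILP_WT). The same held for 8 tested genes of the MYB family and its cofactors and for the 5 tested SOX genes other than Sox4. Between 0% and 7.41% of all genes were called in either direction in these comparisons, so 0 of 5 to 9 genes is near that share. Outside these comparisons, Mef2a was called lower in EILP_KO against ALP_WT (log2 change -2.01, limma adjusted p = 0.0434, with 0.724% of all genes called lower). Mef2d was called lower in ILCP_WT against ALP_WT (-1.42, limma adjusted p = 0.00204, with 7.86% called lower). Each is 1 of 9 tested genes, and for Mef2d that is near the share of all genes.

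Among the 5 tested HOX genes besides Hoxa10, Hoxa9, the neighbouring cluster member and a factor of haematopoietic progenitors, was above the lowest value in all 15 libraries. It was 5.55, 6.01 and 5.85 in ALP_WT, 5.06 and 4.15 in sEILP_WT. The values were 4.71, 3.98 and 4.52 in cEILP_WT and -0.64 and -0.14 in ILCP_WT. It was 3.77 and 3.69 in EILP_KO, against 3.17, 1.98 and 4.46 in EILP_WT. Hoxa9 was called lower in ILCP_WT than in cEILP_WT (log2 change -4.90, SE 0.72, limma adjusted p = 0.00172, with 4.72% of all genes called lower). It was also called lower in ILCP_WT than in EILP_WT (-3.70, limma adjusted p = 0.00973, with 4.34% called lower). In EILP_WT against ALP_WT it was not called (-2.40, limma adjusted p = 0.0794). No other gene of these 5 was called in the 3 comparisons. In ILCP_WT against cEILP_WT, 3 of the 5 had a positive change (median 2.04). Both ILCP_WT values of Hoxa9 lay near the bottom of the scale, and that of replicate 1 (-0.64) equalled the Hoxa10 value there. The size of the 2 called falls is therefore uncertain.

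Meis1, a DNA-binding partner of HOXA9, was 4.13 and 3.60 in ILCP_WT, against 6.17, 5.95 and 4.79 in cEILP_WT, and was not called there. Of 13 tested HOX cofactors and upstream regulators, Aff4, part of the super elongation complex, was called lower in EILP_KO than in EILP_WT (log2 change -3.06, limma adjusted p = 0.0214, with 0.0557% of all genes called lower). Aff4 and Mllt3 were called higher in EILP_WT than in ALP_WT (1.71% of all genes called higher). Aff4 was called higher in ILCP_WT than in cEILP_WT (2.69%) and in EILP_WT (2.61%).

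The list of 26 other progenitor transcription factors had 9 genes called lower and 1 higher in ILCP_WT against cEILP_WT, with a median change of -1.74 against -0.07 over all genes. Of all genes tested, 4.72% were called lower and 2.69% higher there. The list was chosen with earlier results of these data known, so its counts and medians are descriptions and not an independent test. Without ILCP_WT replicate 1 the count called lower was 4, without cEILP_WT replicate 2 or 3 it was 5, and without either other library it was 6 or 7. Against EILP_WT there were also 9 lower and 1 higher (median -0.73, with 4.34% of all genes called lower and 2.61% higher), and 6 to 9 were lower when 1 library was left out. The gene called higher both times was Fli1, an ETS factor, named here after its values were seen.

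Among the genes called lower against cEILP_WT was Gfi1b, a transcriptional repressor expressed in erythroid and megakaryocytic progenitors. Gfi1b was -0.14 in 1 ILCP_WT library and at the lowest value in the other, against 6.18 to 7.02 in cEILP_WT. Tal1 was at the lowest value in both ILCP_WT libraries. Spi1, which encodes the myeloid and lymphoid factor PU.1, was -0.14 and 4.43 in ILCP_WT, against 5.68 to 7.52 in cEILP_WT (log2 change -4.30, SE 0.77, limma adjusted p = 0.00586). Bcl11a, a zinc-finger factor of lymphoid progenitors, fell by 2.23 (SE 0.48, limma adjusted p = 0.016). Spi1 and Bcl11a were also called lower against EILP_WT, as was Cebpa, a factor of myeloid progenitors (log2 change -2.76, limma adjusted p = 0.0476).

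In EILP_WT against ALP_WT the same list had 1 gene higher and 2 lower, where 1.71% of all genes were called higher and 1.5% lower, with a median change of -0.72 against -0.01 over all genes. Mycn rose by 2.71 (limma adjusted p = 0.000296), Myc fell by 1.19 (limma adjusted p = 0.0182) and Tcf4, a basic helix-loop-helix factor, fell by 1.64 (limma adjusted p = 0.0184). In sEILP_WT against ALP_WT, where 0.493% of all genes were called higher and 0.31% lower, Mycn was higher and Tcf4 lower. None of the 26 was called in EILP_KO against EILP_WT.

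Of the 9 TCF/LEF factors and beta-catenin partners, Tcf7 was the 1 gene called in EILP_KO against EILP_WT, where 0.0557% of all genes were called lower. That call follows from the genotype. Tcf7, Lef1 and Tle3, a Groucho-type corepressor, were called higher in EILP_WT than in ALP_WT, where 1.71% of all genes were called higher. EILP_WT was sorted as Tcf7+, so its Tcf7 call follows from the gate. In ILCP_WT against cEILP_WT, Tcf7 was lower (log2 change -1.19, limma adjusted p = 0.0436) and Tcf7l1 higher, where 4.72% of all genes were called lower and 2.69% higher.

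**Figure D4:**
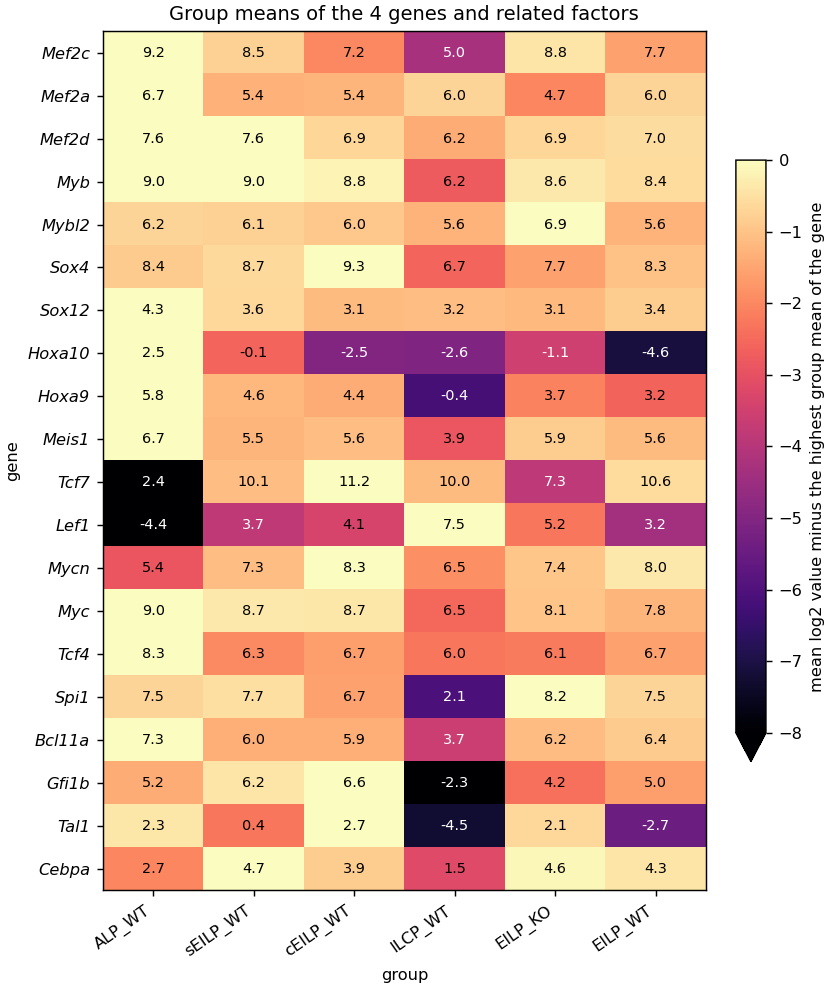
Group means of log2 values (numbers) for the 4 genes and 16 related factors (rows) in the 6 groups (columns), with colour giving the mean minus the highest group mean of that gene. Means of Hoxa10, Lef1, Gfi1b and Tal1 include libraries at the lowest value. ILCP_WT is dark for Mef2c, Hoxa9, Spi1 and Gfi1b.

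The genes with the most similar profiles over the 15 libraries were sought among 6165 tested genes (6166 for Hoxa10) whose mean reached the median of the tested genes. The points share groups, batches and the ILCP_WT fall, so the correlations are descriptions. Mef2c was followed most closely by Wasf2, Rps25, Rtcb and Ppih (Pearson r 0.94 each). Myb was followed by Sh2d5 (r 0.98), Drc7 (0.97), Cd34 (0.96) and Trim28 (0.96), and Sh2d5 and Drc7 were at the lowest value in both ILCP_WT libraries. Cd34 is a surface marker of haematopoietic progenitors.

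Sox4 was followed by Gpr97 (r 0.92), Marcksl1 (0.90), Pdgfrb (0.89) and Ift122 (0.89). Hoxa10 was followed by Fam134b (r 0.84), Tubb5 (0.82), H2afz (0.80) and Chtf8 (0.79), of which H2afz encodes the histone variant H2A.Z. Over the same libraries Spearman's rho was 0.84 to 0.92 for the Mef2c genes and 0.51 to 0.80 for the Myb genes. Hoxa10 itself was at the lowest value in all 3 EILP_WT libraries and in 1 library each of EILP_KO, cEILP_WT and ILCP_WT. Its correlations therefore rest partly on libraries at the bottom of the scale.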

How the data were processed

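RNA was measured in 15 libraries made with the SMARTer ultra low input and Nextera XT kits, per the labels' protocols. Tools listed in the submitters' processing notes are STAR 2.5.2b, RSEM 1.2.23, bcl2fastq 2.17 and limma, with the mm10 build, and the annotation is not given in the sources used here. The deposited values are log2 expression values, read from their range and their near-identical distributions as normalized across libraries by the authors. That normalization holds each library's distribution fixed, so a shift of all genes would not be seen. A further 24 unnamed empty columns were not used.

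Groups and batches came from the labels. All 15 libraries were fitted in limma 3.58.1 (R 4.3.3) with group and batch as terms and an intensity trend. Genes at a log2 value of 0 or more in at least 2 libraries were tested, p-values were adjusted by Benjamini-Hochberg in each comparison, and an adjusted p under 0.05 was called. The procedure was tested on simulated data. Summed marker levels are sums of the deposited values after the log2 was undone.

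The 4 genes, the 14 gene lists and the tests were chosen with earlier results of these data known. The text names the 4 genes in every library, per gene the 4 most correlated genes with a symbol other than a numbered prediction, a fixed set of relatives, and up to 4 called genes with the largest change per list and main comparison. Alternatives were no batch term, a replicate block, no trend, other filters, a repeated quantile and a cyclic loess normalization, the 2 groups alone, each batch alone and leaving out each library.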

Additional observations from a re-analysis of the deposited data

How the results depend on the processing

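Read depth was unknown, groups held 2 or 3 libraries, and batch 2 holds 2 ALP_WT libraries, no sEILP_WT library and 1 library in each other group, so the settings with fewer libraries had few degrees of freedom. Outside leave-one-out, 221 of 256 values kept their direction and side of the threshold (counts within 1.5 times), 24 were weaker, 7 reversed and 4 counts moved. Of 150 leave-one-out values, 126 held, 12 were weaker, 1 was stronger, 3 reversed and 8 counts moved. A result can be weaker only if it was called in the main fit. Results that were not called therefore raise the share that held, and the calls were less stable than these totals. In the 2 groups alone 8 of 27 values were weaker, and in batch 2 alone 8 of 19. The list counts without single libraries were chosen after seeing the data. The alternative of another pseudocount was not run because the values are already logarithms, sEILP_WT comparisons have no batch 2 value, and Hoxa10 has no value under the stricter filter, which it did not pass. All 27 values held under repeated quantile normalization, and all 27 under cyclic loess. The repeated quantile step could change little, because the deposited distributions were already near-identical, so it does not test the calls. The causes of the changes below were not tested.

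The Mef2c change in EILP_WT against ALP_WT no longer passed without the batch term (-1.57, adjusted p = 0.0501), without the intensity trend (-1.68, 0.124), in the 2 groups alone (-1.80, 0.0549), in batch 1 (-1.60) or in batch 2 (-1.998), and ran from -1.98 to -1.40 over leave-one-out. The adjusted p of Hoxa10 in that comparison was 0.0698 without batch, 0.0581 without the trend, 0.141 in the 2 groups alone, 0.216 in batch 1, 0.278 in batch 2 and 0.091 to 0.132 over leave-one-out. Myb there ran from -0.81 to -0.37.

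In the 2 groups alone, ILCP_WT against cEILP_WT gave -2.28 for Mef2c, -2.61 for Myb and -2.55 for Sox4, and against EILP_WT -2.70, -2.13 and -1.52, with no call. In batch 2 the same 3 genes gave -0.96, -2.72 and -2.70 against cEILP_WT and -1.37, -1.77 and -1.56 against EILP_WT, with no call. Leave-one-out values of Mef2c against cEILP_WT ran from -3.22 to -1.07. Of the 2 members called in cEILP_WT against ALP_WT, 1 was called without the trend, 0 in batch 1, 0 in batch 2 and 0 to 2 over leave-one-out. Of the 3 called in ILCP_WT against ALP_WT, 0 were called in batch 2.

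Reversals were in comparisons that were never called. Myb in sEILP_WT against ALP_WT was 0.0091 without batch, and Sox4 was -0.032 in the 2 groups alone, -0.032 in batch 1 and -0.035 to 0.13 over leave-one-out. Hoxa10 in ILCP_WT against cEILP_WT was -0.050 without batch, -1.88 in batch 2 and -1.17 to 1.38 over leave-one-out. Its sign also turned in batch 2 for EILP_KO against EILP_WT (adjusted p = 0.989) and ILCP_WT against EILP_WT (0.992).

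Replicate numbers recur across groups, but same-numbered libraries did not deviate together (r from -0.07 to 0.05 over 33 pairs, 0 above 0.1). With the replicate block in place of batch, Mef2c in EILP_WT against ALP_WT was -1.57 (adjusted p = 0.053) and the adjusted p of Hoxa10 was 0.0989, and of the 27 results fitted with the block (list genes and the comparisons outside these were not), the other 25 held.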
